A study of Mus musculus with 12 samples.

Results

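The genes of the cytosolic ribosomal proteins were followed across 12 arrays of mouse ileum. A gene was taken as a member when the only symbol annotated to its probe set was Rpl or Rps with a number, with or without a final a, x or y, or was Rplp0, Rplp1, Rplp2 or Rpsa. This gave 41 of the 12393 genes with 1 symbol, 22 of the large subunit and 19 of the small subunit, and each gene was read from its probe set with the highest mean over the 12 arrays. No measured difference between groups entered the rule. The annotation also attaches ribosomal protein symbols to 102 probe sets that list several symbols. Those were not members, and Rplp1, Rpl3, Rpl5, Rpl10 and Rps27a were therefore not analysed here as members.

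The study compared male C57BL/6 wild-type mice with POR-null mice, which lack cytochrome P450 reductase, the enzyme that passes electrons to the microsomal P450 enzymes. All mice were 6 to 8 weeks old and spent 14 days on the soya-free powdered diet RM3, and then received either that diet alone (control) or the same diet for 24 h with quercetin, a flavonol, at 6.2 g in each kg (7 mg for a mouse). The 4 groups were wild-type control, wild-type quercetin, POR-null control and POR-null quercetin, with 3 arrays each. The ileum was the last of 3 equal parts of the small intestine, and RNA came from its scraped epithelial layer. Each array held RNA pooled from 3 mice, so a group stands for 9 mice and the spread between arrays is a spread between pools. Which tissues lost the reductase is not given in the labels, and Por itself is not analysed here.

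Cytosolic ribosomes translate the messenger RNAs of the cell, and each of their subunits is built on ribosomal RNA with many proteins, most of them present in a single copy. The messenger RNAs of these proteins are among the most abundant in dividing and secreting cells, and the intestinal lining, which renews itself from its crypts, makes many ribosomes. Most vertebrate messenger RNAs of this class begin with a cytosine followed by an unbroken run of pyrimidines, the 5′ TOP tract, through which mTOR signalling and the binding protein Larp1 regulate their translation and stability.

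The starts of the genes are shown first because the tract at the start is the sequence feature the class is known for. RefSeq promoters on GRCm38.p6 were found for 36 of the 41 members, and Rpl7, Rpl8, Rps14, Rps20 and Rps29 had none in the table. Each stretch below holds 10 bases before the annotated start and 20 bases from it, on the strand of the gene, and capitals mark the longest run of a C followed by at least 4 more C or T that begins within 10 bases of the start. The genes shown are members described below, with a tract in the first 7 and without one in the last 4.
Rps18, minus strand of chr17:33955646-33955675: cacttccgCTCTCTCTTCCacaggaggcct
Rps6, minus strand of chr4:86857348-86857377: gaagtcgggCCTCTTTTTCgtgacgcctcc
Rpl35, minus strand of chr2:39005112-39005141: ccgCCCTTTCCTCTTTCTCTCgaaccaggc
Rpl27a, plus strand of chr7:109519185-109519214: cgtgagCTCCTCCCTTTTCCCTTTCTgcca
Rplp2, plus strand of chr7:141447641-141447670: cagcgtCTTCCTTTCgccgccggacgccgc
Rps27, minus strand of chr3:90213629-90213658: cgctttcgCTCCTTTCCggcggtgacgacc
Rpl39, minus strand of chrX:37085203-37085232: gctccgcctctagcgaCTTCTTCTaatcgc
Rpl11, minus strand of chr4:136053374-136053403: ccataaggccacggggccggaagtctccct
Rps15, plus strand of chr10:80292421-80292450: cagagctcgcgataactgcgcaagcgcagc
Rplp0, plus strand of chr5:115559457-115559486: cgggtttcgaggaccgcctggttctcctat
Rps4x, minus strand of chrX:102189372-102189401: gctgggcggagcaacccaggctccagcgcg

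Such a tract stood at a start of 23 of the 36 members (63.9%), against 34.9% of 17492 protein-coding genes in the same table and 44.9% of 69 genes of mitochondrial ribosomal proteins. On the opposite strand of the same windows the shares were 25.0% of members and 39.4% of all genes. The search was set after the promoters had been read, and an annotated start can lie some bases from the one used in ileum. Other letters were searched on either strand in the 300 bases from 250 before a start to 50 after it. CCGGAAG, a core bound by ETS factors, was found there in 50% of members and 12.9% of all genes. The GC box GGGCGG was found in 55.6% and 49.2%, and TATAAA in 13.9% and 14.8%. Matches of these searches can share letters with each other. On quercetin in wild type the median difference was 0.26 (log2) in the 23 members with the tract. It was 0.28 in the 13 without it and 0.27 in the 5 outside the table. A gene counted as having the tract when any of its listed starts did, and 34.9% of all protein-coding genes passed. The search therefore cannot cleanly sort TOP messenger RNAs from others, and a bearing of the tract on these values was not tested.

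Levels are log2 values, so a difference of 1 is a doubling. Most members were among the brightest probe sets of the arrays. Their means over the 12 arrays ran from 4.64 for Rpl14 to 12.87 for Rpl41, with a median of 11.3 against 5.93 for all 22626 probe sets tested. Of the 41, 34 had a mean of 8 or more, a limit set after the values were seen. The 7 below it were Rpl12, Rpl14, Rpl27a, Rpl39, Rps6, Rps25 and Rps27, and 3 of these lay under the median of all probe sets. A brightness depends on the probes, so these levels do not rank the genes by abundance.

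The arrays had nearly equal medians, 5.91 to 5.96, and pairs of arrays correlated with r of 0.9897 to 0.9956 across probe sets. The labelled tissue bore its markers: the enterocyte genes Fabp2 and Vil1 averaged 13.40 and 12.24, and the ileal bile acid binding protein gene Fabp6 averaged 12.42. Wild-type control replicate 2 stood apart from the rest. It lay at -25.57 on the first principal component (19.69% of the variance), wild-type control replicate 3 lay at -10.80, and the other 10 arrays lay between -3.36 and 10.56. Replicate 2 also had the highest score of proximal small intestine genes, 1.02 against -0.43 to 0.42 in the other arrays (mean log2 value of 9 measured genes after centring each), and the lowest scores of crypt and cell cycle, Paneth cell and ileal segment genes (-0.31, -0.64 and -0.23). It was in the middle of the arrays in the signal of 3′ over 5′ control probes of Gapdh and Actb. Medians of the members are given with and without this array in each comparison that it enters, and so are some of their counts. Counts of members whose arrays do not overlap are given only with all 12 arrays. The share of all probe sets that were higher or lower was taken only with all 12 arrays. Counts of members by direction without an array therefore have no such share beside them.

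A score was taken for each array as the mean, over the members, of the log2 value minus the mean of that gene over the 12 arrays. Wild-type control arrays scored -0.02, -0.30 and -0.13, and wild-type quercetin arrays scored 0.06, 0.15 and 0.11. POR-null arrays scored 0.01, -0.03 and 0.05 on the control diet and -0.01, 0.06 and 0.04 on quercetin. The wild-type control group was thus the low one and the wild-type quercetin group the high one, with both POR-null groups near 0 between them. In order, the group means were -0.15 ± 0.14, 0.01 ± 0.04 for POR-null control, 0.03 ± 0.04 for POR-null quercetin and 0.11 ± 0.05 for wild-type quercetin (SD, n = 3). The POR-null groups differed by less than their SD, and wild-type control and POR-null control overlapped in single arrays. Without wild-type control replicate 2 the mean of that group was -0.075. Because the members were chosen with earlier results of these arrays known, the score is a description and has no p-value.

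**Figure D1:**
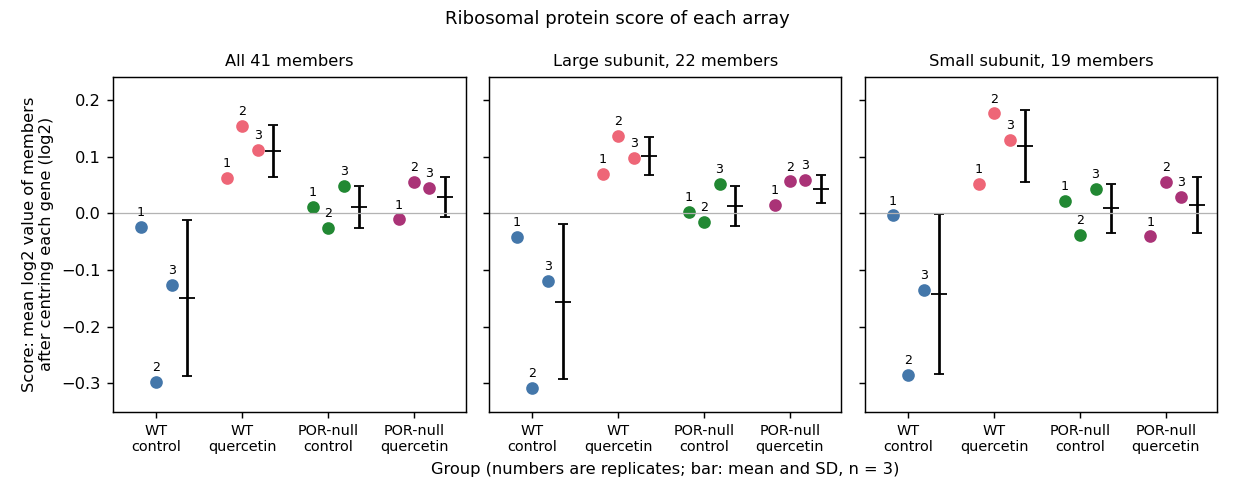
Score of each array (y axis, log2 units after centring each gene) for all 41 members, the 22 of the large subunit and the 19 of the small subunit, by group on the x axis. Points are arrays numbered by replicate, and bars give the mean and SD of 3 arrays. Wild-type control replicate 2 is the lowest point in each panel, and the 3 wild-type quercetin arrays lie above the 3 wild-type control arrays in each.

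The large and small subunits had nearly the same scores. The large subunit score was -0.16 ± 0.14, 0.10 ± 0.03, 0.01 ± 0.04 and 0.04 ± 0.02 in wild-type control, wild-type quercetin, POR-null control and POR-null quercetin, and the small subunit score was -0.14 ± 0.14, 0.12 ± 0.06, 0.01 ± 0.04 and 0.01 ± 0.05 (SD, n = 3). Within an array the large minus the small subunit score stayed between -0.04 and 0.05, while the score of all members spanned -0.30 to 0.15. The pooled SD within groups was 0.027 for that difference and 0.077 for the score.

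Members also varied together inside groups. After the group means were removed, pairs of members correlated over the 12 arrays with a median r of 0.51, and 89.6% of the 820 pairs were above 0. Among the 34 members at a level of 8 or more the median was 0.62, and between a large and a small subunit member of these it was 0.63. The median was 0.12 among 74 mitochondrial ribosomal protein genes and 0.05 among 2365 other genes at 8 or more. The points of these correlations share the array and its RNA pool, and wild-type control replicate 2 carries the largest deviations. It was the lowest of the 12 arrays in 35 of the 41 members (85.4%), against 11.9% of all probe sets. When it was left out, wild-type control replicate 3 was the lowest in 23, a count for which no share of all probe sets was taken. At the other end, wild-type quercetin replicate 2 was the highest in 19 members (46.3%, against 8.34% of all probe sets). As a group, wild-type control had the lowest mean in 36 members, where 23.7% of all probe sets had theirs, and wild-type quercetin had the highest in 34, against 20.8%.

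**Figure D2:**
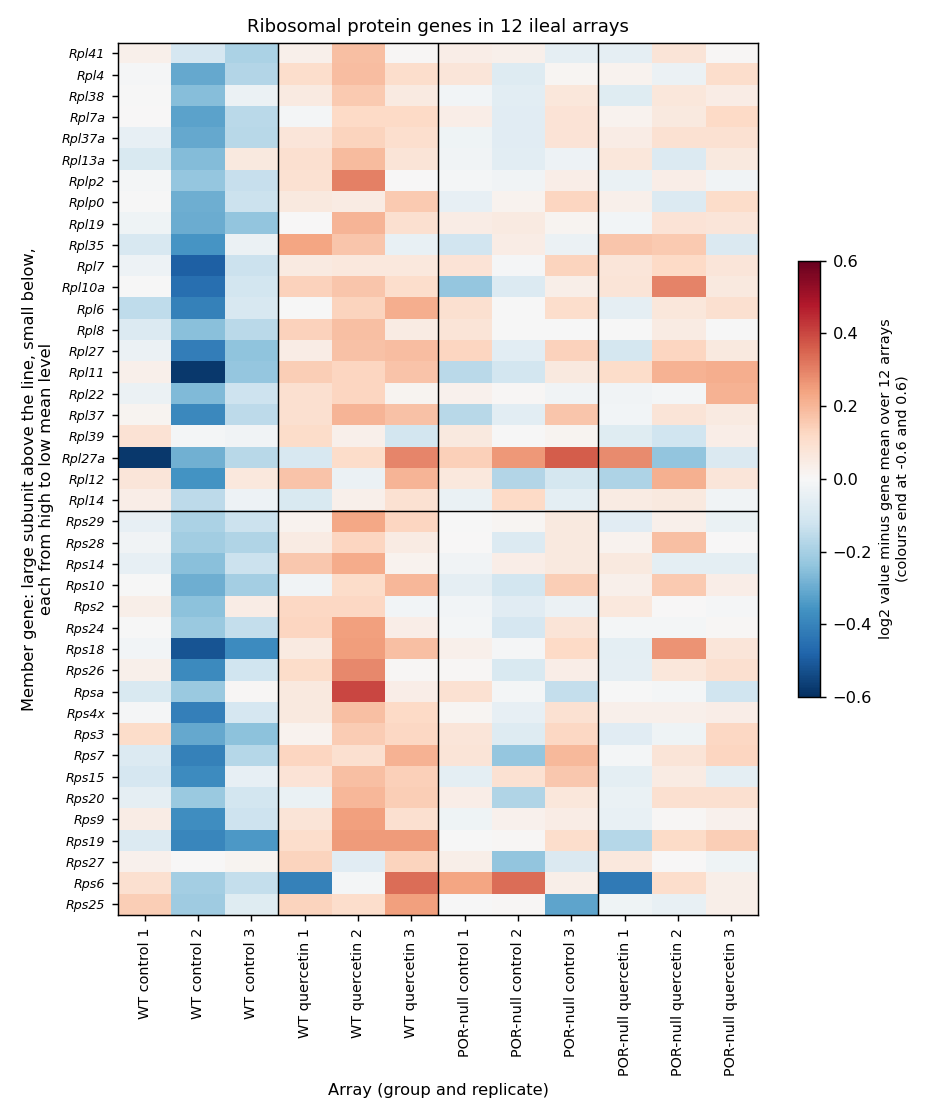
Each row is a member and each column an array, with the colour giving the log2 value minus the mean of the gene over the 12 arrays, cut at -0.6 and 0.6. The column of wild-type control replicate 2 is the bluest from top to bottom, the wild-type quercetin columns are mostly red, and Rpl27a, Rpl39, Rps6, Rps25 and Rps27, all under a mean level of 8, depart from the common pattern.

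In wild-type mice, quercetin was set against the control diet. None of the 41 members passed the threshold of limma's test (Benjamini-Hochberg adjusted p under 0.05 over all 22626 probe sets), where 1 probe set passed (0.00442%). The smallest adjusted p of a member was 0.2201, for Rps19. The direction was shared all the same: 40 of 41 members had a higher mean on quercetin, against 42.3% of all probe sets, and 1 had a lower one, against 57.2%. At an unadjusted p under 0.05, 33 members were higher (80.5%, against 5.32% of all probe sets) and 0 were lower (5.59%), and in 28 the 3 quercetin arrays lay above the 3 control arrays (68.3%, against 5.33%), while in 0 they lay below (8.08%). The median difference was 0.27 (1.2-fold), with a range from -0.01 to 0.48, and the median of all probe sets was -0.02. Of the large subunit, 18 of 22 members were past the unadjusted threshold, and of the small subunit 15 of 19, with medians of 0.28 and 0.26. The 8 that were not included 6 of the 7 dimmest, Rpl12, Rpl14, Rpl39, Rps6, Rps25 and Rps27, and with them the bright genes Rpl41 and Rps2.

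The size of the difference depended on the control arrays. When wild-type control replicate 2 was left out the median difference was 0.18, 39 of 41 members were still higher, and 19 were past the unadjusted threshold in that direction (3.55% of all probe sets were), with a smallest adjusted p of 0.5247. Without wild-type control replicate 1 the median was 0.32, 35 were past the unadjusted threshold higher (7.81% of all probe sets), and Rps18 (0.61 ± 0.10, SE), Rps19 (0.58 ± 0.10) and Rpl11 (0.56 ± 0.10) passed limma's adjusted threshold, at 0.04338, 0.0486 and 0.04915. In that setting the controls are replicates 2 and 3, the pair lowest on the first component. Without wild-type quercetin replicate 2, 23 were past the unadjusted threshold higher (4.01%).

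Rps19, a small subunit protein whose gene is the one most often mutated in Diamond-Blackfan anaemia, had the smallest p. Its log2 values were 10.28, 9.97 and 10.02 in wild-type control, 10.47, 10.62 and 10.62 in wild-type quercetin, 10.36, 10.37 and 10.47 in POR-null control, and 10.19, 10.48 and 10.51 in POR-null quercetin. All 3 wild-type quercetin arrays were above all 3 controls, by 0.48 ± 0.10 on average (SE), or 1.4-fold, and the POR-null arrays lay between or beside them. Without wild-type control replicate 2 the difference was 0.42. Rps18, which lines the decoding side of the small subunit and whose start carries the tract shown above, read 11.56, 11.06 and 11.20 in wild-type control and 11.63, 11.83 and 11.76 in wild-type quercetin. Its POR-null values were 11.61, 11.57 and 11.70 on control and 11.52, 11.85 and 11.65 on quercetin. The groups of wild type did not overlap, the difference was 0.47 ± 0.12 (limma adjusted p = 0.2661), and replicates 2 and 3 of the control were the low arrays. It was 0.36 without replicate 2.

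Of the large subunit, Rpl8, a protein close to the peptidyl transferase centre, read 10.61, 10.44 and 10.53 in wild-type control and 10.83, 10.87 and 10.74 in wild-type quercetin. The POR-null arrays read 10.77, 10.69 and 10.69 on control and 10.69, 10.74 and 10.69 on quercetin. Every wild-type control array was below every other array of this gene, and the wild-type difference was 0.29 ± 0.07 (limma adjusted p = 0.2369). Rpl6 read 10.72, 10.47 and 10.78 against 10.87, 11.01 and 11.09, a difference of 0.33 ± 0.09 with no overlap (limma adjusted p = 0.2694), and POR-null values of 10.97, 10.87, 10.98, 10.82, 10.94 and 10.97 lay with the quercetin arrays. Rpl39, an exit tunnel protein and the only member with a lower mean, read 6.86, 6.76 and 6.75 against 6.88, 6.80 and 6.66, a difference of -0.01 ± 0.07.

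The stalk, which recruits the elongation factors, was represented by Rplp0, Rplp2 and Rpl12. Rplp0 read 11.40, 11.11 and 11.27 in wild-type control and 11.46, 11.45 and 11.56 in wild-type quercetin, a difference of 0.23 ± 0.09. Rplp2 read 11.50, 11.28 and 11.37 against 11.60, 11.81 and 11.51, a difference of 0.26 ± 0.08. In both genes the quercetin arrays were above the controls. Rplp0 has no tract at its annotated start and Rplp2 has one, and a bearing of the tract on these values was not tested. Without wild-type control replicate 2 the differences of Rplp0 and Rplp2 were 0.16 and 0.21. Rpl12, a dim member, differed by 0.19 ± 0.13 with overlapping arrays, and by 0.045 ± 0.117 without that replicate.

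Rpl11, which joins the large subunit with the smallest ribosomal RNA and, outside the ribosome, binds the p53 regulator Mdm2, had a spread control group. Its values were 10.54, 9.93 and 10.28 in wild-type control, 10.66, 10.64 and 10.68 in wild-type quercetin, 10.35, 10.40 and 10.57 in POR-null control and 10.62, 10.72 and 10.73 in POR-null quercetin. Control replicate 2 was 0.35 or more below the other arrays of its group, both quercetin groups were above their controls without overlap, and the wild-type difference was 0.41 ± 0.12 with all arrays and 0.25 ± 0.09 without replicate 2.

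On the small subunit, members at the mRNA entry (Rps2, Rps3, Rps9) had a median difference of 0.25 and those at the mRNA exit (Rpsa, Rps14, Rps26, Rps28) one of 0.27, or 0.17 and 0.19 without wild-type control replicate 2. Rps3, which has a second role in DNA repair, read 11.47, 11.05 and 11.11 against 11.38, 11.51 and 11.48, so that control replicate 1 lay among the quercetin arrays (difference 0.25 ± 0.10). Rpsa, also known as a laminin receptor, read 11.30, 11.17 and 11.40 against 11.45, 11.79 and 11.43, with replicate 2 of quercetin the highest (0.27 ± 0.10). Of 11 measured members whose human counterparts are Diamond-Blackfan anaemia genes, all 11 were higher and 10 past the unadjusted threshold (5.32% of all probe sets were), a share not tested against the other members. All 11 were also higher without wild-type control replicate 2, with 6 past it (3.55%).

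Further members with a known second role lay in the same range. Rps4x, 1 of 2 members on the X chromosome, differed by 0.29 ± 0.09 (1.22-fold) and Rpl13a, which can silence inflammatory messenger RNAs when released, by 0.22 ± 0.08. Rpl22, known for roles in lymphocyte development, differed by 0.22 ± 0.08. Each of these 3 had quercetin arrays above control arrays without overlap. When wild-type control replicate 2 was left out the differences were 0.18 ± 0.08, 0.14 ± 0.08 and 0.16 ± 0.09, and only that of Rps4x was still past the unadjusted threshold.

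Rps6, the target of the S6 kinases downstream of mTOR, was dim and scattered. It read 6.32, 6.02 and 6.08 in wild-type control, 5.82, 6.21 and 6.56 in wild-type quercetin, 6.46, 6.56 and 6.26 in POR-null control and 5.80, 6.33 and 6.26 in POR-null quercetin. Its groups overlapped throughout, its SD over the 12 arrays was 0.25 and its wild-type difference was 0.06 ± 0.17. A messenger RNA level says nothing of the phosphorylation this protein is measured for.

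**Figure D3:**
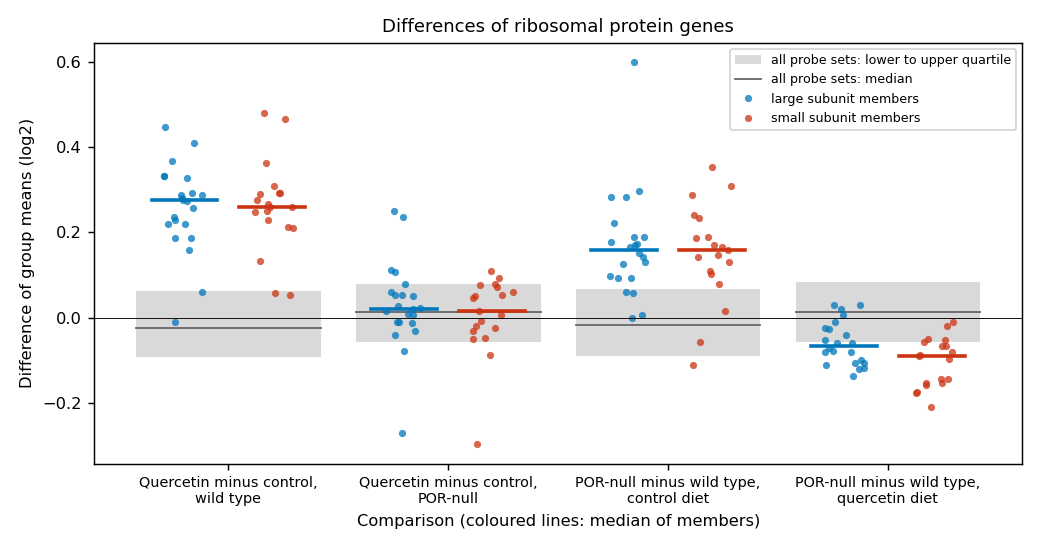
Differences of group means (y axis, log2) of the 22 large and 19 small subunit members in the 4 comparisons of groups (x axis). Coloured lines are medians of members, the grey band holds the middle part of all 22626 probe sets from the lower to the upper quartile, and the dark line is their median. In wild type on quercetin the medians of both subunits, 0.28 and 0.26, lie above the grey band, and in POR-null mice on quercetin they lie within it.

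The choice of probe set mattered for dim ones. The 21 members with several probe sets had 49 others. All 29 others at a mean level of 8 or more gave the wild-type quercetin difference the same sign as the chosen one, and 9 of the 20 under 8 did. For Rps18 the probe sets at 11.48 and 10.97 gave 0.31 and 0.39, and those at 5.52, 3.58 and 3.62 gave -0.10, 0.00 and 0.11. Names ending in _x_at (13 of the 41 chosen probe sets) or _s_at (1) mark probes that also match other sequences, so that signal from paralogs of those genes cannot be told apart from the gene itself, and names ending in _a_at (14) mark probes shared by several transcripts of a gene. When only probe sets with none of these endings were used, 20 members remained, with a median difference of 0.12 and 14 higher. Of these, 6 were at a level of 8 or more and all 6 were higher (median 0.28), while 14 were dimmer, with 8 higher (median 0.05).

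In POR-null mice the same diets were compared. The members did not share a direction: 26 of 41 were higher on quercetin (54.8% of all probe sets were) and 15 were lower (44.6%). None passed limma's adjusted threshold (0% of all probe sets) or the unadjusted one (3.64% were past it higher and 3.01% lower). The median difference was 0.02, with 0.01 for all probe sets, and 3 members had quercetin arrays above control arrays (7.32%, against 7.45%), while 0 had them below (5.11%). These were Rpl11, Rpl10a and Rps2. Rpl11 differed by 0.25 ± 0.12. Rpl10a, of the stalk beside the exit site of the large subunit, read 10.68, 10.83 and 10.95 on control and 10.99, 11.21 and 10.97 on quercetin, a difference of 0.24 ± 0.11 with the smallest adjusted p of a member, 0.7459. In wild type it read 10.91, 10.46 and 10.80 against 11.05, 11.08 and 11.02, a difference of 0.33 ± 0.11 that was 0.20 ± 0.10 without control replicate 2. At the other end, Rps6 differed by -0.30 ± 0.17 and Rpl27a by -0.27 ± 0.14. Of the members with higher means, Rps27 (0.11 ± 0.08) and Rpl35 (0.11 ± 0.10) had the next smallest p-values, and of those with lower means, Rpl39 (-0.08 ± 0.07) and Rps15 (-0.09 ± 0.09).

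On the control diet, POR-null mice were set against wild type. This comparison uses the same 3 wild-type control arrays as the wild-type quercetin comparison, so the pair is not independent. Of the members, 39 of 41 were counted as higher in POR-null mice (44% of all probe sets were). This count includes Rpl12, whose group means on this diet were equal (5.853 in both). Past the unadjusted threshold, 12 members were higher (29.3%, against 4.53%) and 0 lower (5.6%). In 10 the POR-null arrays lay above the wild-type ones (24.4%, against 5.15%), and in 0 they lay below (8.71%). None passed limma's adjusted threshold (0%). The median difference was 0.16 (1.12-fold), and that of all probe sets was -0.02. Both subunits had a median of 0.16, with 7 of 22 and 5 of 19 past the unadjusted threshold. Without wild-type control replicate 2 the median was 0.09, with 34 higher and 3 past the unadjusted threshold (3.73% of all probe sets), and without replicate 1 it was 0.23, with 25 past it (6.95%).

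Rpl27a, a large subunit protein with the longest tract of the members searched, 20 bases, had the smallest p. It read 5.91, 6.20 and 6.32 in wild-type control, 6.39, 6.60 and 6.78 in wild-type quercetin, 6.63, 6.75 and 6.85 in POR-null control and 6.77, 6.25 and 6.40 in POR-null quercetin. It was the member with the largest SD over the 12 arrays, 0.29, and the only one whose lowest array was wild-type control replicate 1. The genotypes differed by 0.60 ± 0.14 on the control diet (1.52-fold, limma adjusted p = 0.2657) and by 0.63 without replicate 2, but its other probe set, at a mean of 4.27, differed by -0.10. Rps18 differed by 0.35 ± 0.12, Rps19 by 0.31 ± 0.10 and Rpl6 by 0.28 ± 0.09, each without overlap. Rpl7, of the large subunit, read 11.01, 10.55 and 10.91 in wild type against 11.12, 11.03 and 11.17 in POR-null mice, and its difference of 0.28 ± 0.10 was 0.15 without replicate 2, the array at 10.55. The 2 members with lower means (55.6% of all probe sets had one) were Rps27 (-0.11 ± 0.08) and Rps25 (-0.06 ± 0.10), and Rps25 read 5.16, 4.80 and 4.94 against 5.01, 5.02 and 4.70.

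On the quercetin diet the difference between genotypes pointed the other way. Here 37 of 41 members had a lower mean in POR-null mice (44.1% of all probe sets did), with a median difference of -0.08 against 0.01 for all probe sets. None was past the adjusted threshold (0%) or the unadjusted one (3.87% higher, 3.14% lower), and the smallest limma adjusted p was 0.7135, for Rps29. In 8 members all POR-null arrays were below all wild-type ones (19.5%, against 5%), 6 of them of the small subunit, and in 1, Rpl7, they were above (2.44%, against 7.28%). This comparison shares no array with the one on the control diet, and does share the wild-type quercetin arrays with the first. With an array left out its median was -0.11 to -0.052. The median was smallest in size without POR-null quercetin replicate 1, with 30 members lower and 11 higher. Rps29, the brightest small subunit member and a zinc-binding protein, read 12.61, 12.82 and 12.72 in wild type against 12.52, 12.62 and 12.55 in POR-null mice, a difference of -0.15 ± 0.07. Rpsa read 11.45, 11.79 and 11.43 against 11.39, 11.38 and 11.27, a difference of -0.21 ± 0.10 without overlap. Rps14 (-0.15 ± 0.08) and Rps24 (-0.14 ± 0.08) followed, and the 4 members with higher means (55.2% of all probe sets had one), Rpl7, Rpl11, Rpl14 and Rpl10a, differed by 0.01 to 0.03.

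The interaction asked whether the quercetin difference depended on genotype. It was negative, a smaller difference in POR-null mice, in 40 of 41 members (42.6% of all probe sets) and above 0 in 1 (57.2%), with a median of -0.25 against 0.03 for all probe sets. None passed limma's adjusted threshold (0%), and 14 were past the unadjusted one below 0 (34.1%, against 4.24%) and 0 above (6.07%). No single member was therefore shown to differ between genotypes in its response to quercetin. The smallest p-values belonged to Rpl27a (-0.72 ± 0.20, limma adjusted p = 0.3515), Rps19 (-0.49 ± 0.14), Rps15 (-0.40 ± 0.13), Rpl8 (-0.30 ± 0.10) and Rps14 (-0.32 ± 0.11). Rps15, another protein of the decoding side, read 10.85, 10.57 and 10.90, then 11.03, 11.13 and 11.09 in wild type (control before quercetin). In POR-null mice it read 10.89, 11.04 and 11.11, then 10.89, 11.00 and 10.89. Leaving out wild-type control replicate 2 gave a median interaction of -0.16, with 36 below 0 and 8 past the unadjusted threshold below 0 (3.73% of all probe sets). That count was also 8 without wild-type quercetin replicate 2 (3.38%) and without POR-null quercetin replicate 1 (3.47%), and 24 without wild-type control replicate 1 (6.12%). Averaged over genotypes, quercetin arrays were higher by a median of 0.14, with 22 members past the unadjusted threshold higher (3.69% of all probe sets), 0 lower (3.75%) and 0 passing the adjusted one. Of the members 39 were higher (48.8%) and 2 lower (50.9%). The count of 22 was 10 without wild-type control replicate 2 (2.62% of all probe sets, median 0.10), 12 without wild-type quercetin replicate 2 (3.06%), 13 without POR-null control replicate 2 (3.04%) and 13 without POR-null quercetin replicate 3 (2.98%). Averaged over diets, POR-null arrays were higher by 0.04, with 31 higher (49%) and 10 lower (50.8%). Here 2 were past the unadjusted threshold higher (3.72%), Rpl7 and Rpl27a, and 0 lower (3.4%). That average had no shared direction without wild-type control replicate 2, when the median was 0.003 with 21 higher and 20 lower, and without wild-type control replicate 1 the median was 0.07 with 6 past the unadjusted threshold higher (5.1%).

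The rest of the translation machinery was read from lists chosen, like the members, with earlier results known. On quercetin in wild type, elongation factors were higher in 7 of 8 measured genes (median 0.22), initiation factors in 28 of 31 (0.16), and 17 other genes with TOP messenger RNAs in 17 of 17 (0.28), a list that shares genes with the former 2. At an unadjusted p under 0.05 these lists had 4, 13 and 9 genes higher and 0 lower, and none passed limma's adjusted threshold. Of all probe sets, 42.3% were higher in this comparison. Past the unadjusted threshold, 5.32% of all probe sets were higher and 5.59% lower. With wild-type control replicate 2 left out the medians of these lists were 0.14, 0.11 and 0.21, with 8, 25 and 17 genes higher. Then 3, 9 and 6 genes were past the unadjusted threshold higher (3.55% of all probe sets were). Eef1b2, an exchange factor of elongation, read 9.94, 9.72 and 9.84 on control and 10.06, 10.22 and 10.20 on quercetin, a difference of 0.33 ± 0.08 without overlap. Eif3h and Eif3f, subunits of the initiation factor that binds the small subunit, differed by 0.31 ± 0.08 and 0.32 ± 0.09. Among 8 ribosomal proteins outside the rule, fused to ubiquitin-like parts or paralogs, 5 were higher and 3 lower (median 0.18). Past the unadjusted threshold 4 were higher and 0 lower (5.32% and 5.59% of all probe sets). Without wild-type control replicate 2, 6 were higher and 2 lower (median 0.14), with 3 past that threshold higher (3.55%). Rps4l, with the smallest p of the list, read 7.66, 7.62 and 7.68 against 8.02, 8.07 and 8.14 (0.42 ± 0.08, limma adjusted p = 0.1127). For this gene the 3 control arrays lay close together.

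Genes that build ribosomes were less uniform. Of 41 ribosome biogenesis genes 33 were higher (median 0.10), with 9 past the unadjusted threshold (5.32% of all probe sets were). The nucleolar genes Ncl (0.45 ± 0.13), Npm1 (0.41 ± 0.14) and Fbl (0.32 ± 0.12) had the smallest p-values. With wild-type control replicate 2 left out this list had 25 higher and a median of 0.04. Then 2 were past the unadjusted threshold, near the share of all probe sets (3.55%). Ncl read 8.92, 8.22 and 8.55 against 9.02, 9.01 and 9.02. RNA polymerase I and III genes divided into 11 higher and 11 lower (median 0.00). The regulators of mTOR and Myc divided into 8 higher and 7 lower, with 3 past the unadjusted threshold, all lower (5.59% of all probe sets were). These were Deptor, an mTOR inhibitor, which read 8.16, 7.92 and 8.01 against 7.25, 7.39 and 7.59 (-0.62 ± 0.12, limma adjusted p = 0.1747), the Myc antagonist Mxd1 (-0.49 ± 0.14) and Eif4ebp1, which holds back the cap-binding factor (-0.38 ± 0.17). Of 8 measured p53 targets and regulators, 5 were higher and none was past the unadjusted threshold. Mitochondrial ribosomal proteins were higher in 67 of 74 (median 0.11), with 15 past the unadjusted threshold (5.32% of all probe sets). Without wild-type control replicate 2 they were higher in 64 (median 0.08), with 7 past it (3.55%). Of 6 RNAs that host small nucleolar RNAs, 5 were higher (median 0.21, or 0.14 with 4 higher without that array), and Gas5, itself a TOP transcript, was the 1 probe set of the whole comparison past the adjusted threshold (1.18 ± 0.12, limma adjusted p = 0.002926).

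The same lists were read in the other comparisons. In POR-null mice on quercetin the medians were 0.01 for elongation factors, -0.02 for initiation factors, -0.04 for the other TOP genes and 0.03 for mitochondrial ribosomal proteins. On the control diet, POR-null minus wild type gave medians of 0.13, 0.14, 0.22 and 0.06. The genes higher were 8 of 8, 26 of 31, 17 of 17 and 53 of 74 (44% of all probe sets were). Without wild-type control replicate 2 these medians were 0.12, 0.07, 0.15 and 0.03, with 8, 24, 17 and 45 genes higher. On quercetin POR-null minus wild type gave -0.06, -0.07, -0.08 and -0.04. The first of these genotype comparisons shares its wild-type control arrays with the comparison of diets in wild type.

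**Figure D4:**
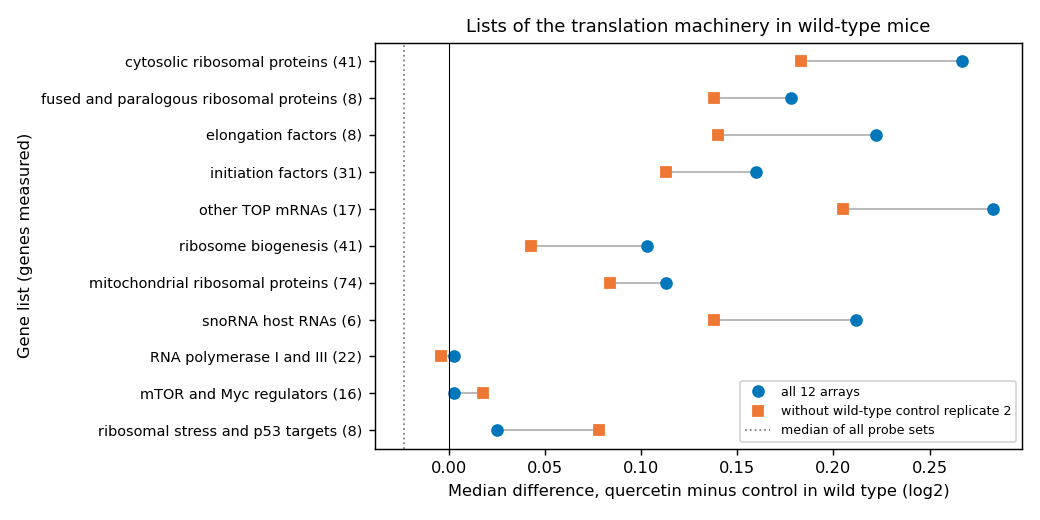
Median difference on quercetin in wild type (x axis, log2) of the members and of 10 lists of the translation machinery (y axis, with the genes measured), with all 12 arrays (circles) and without wild-type control replicate 2 (squares). The dotted line is the median of all probe sets, -0.02. Without that array the median of the members moves from 0.27 to 0.18, and that of ribosome biogenesis genes from 0.10 to 0.04.

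Marker genes of cell types and of places along the intestine are given beside these results. Of all probe sets, 42.3% were higher on quercetin in wild type, and 44% were higher in POR-null mice on the control diet. The B and plasma cell score was -0.34, -0.30 and 0.08 in wild-type control and 0.18, 0.18 and 0.43 in wild-type quercetin, with 8 of 8 measured genes higher (median 0.44). It was -0.13 to 0.17 in POR-null control and -0.30 to 0.05 in POR-null quercetin. Crypt and cell cycle genes were higher on quercetin in 10 of 13 (median 0.27), with scores of -0.31 to 0.05 on control and 0.06 to 0.12 on quercetin. Ileal segment genes were higher in 8 of 8 (median 0.14) and proximal small intestine genes lower in 8 of 9 (median -0.31), while enterocyte genes divided into 4 higher and 4 lower (median 0.01). Without wild-type control replicate 2 the medians were 0.40 for B and plasma cell genes (8 of 8 higher), 0.12 for crypt and cell cycle genes (10 of 13) and 0.12 for ileal segment genes (7 of 8). The proximal small intestine genes then had a median of -0.02, with 6 of 9 lower, so their difference rested on that array. On the control diet, 14 of 15 genes of smooth muscle and stroma had higher means in POR-null mice (median 0.36), and their scores ran from -0.56 to -0.17 for wild type and from -0.44 to 0.80 for POR-null (median 0.41 without wild-type control replicate 2). No marker was listed at 0. The part of these cell types, or of the place along the intestine, in the values of the members was not tested, and in whole scrapings a different share of a cell type cannot be told apart from a different RNA content of its cells.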

How the data were processed

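RNA of 12 ileal pools was measured on Affymetrix 430A arrays. The authors deposited log2 values, 1 per probe set and array; per the submitters' processing notes MAS5 and RMA were used, with neither a role nor a version given. The values were used as deposited, without another normalization (22690 probe sets, 64 array controls left out). Symbols came from the platform annotation, matched by gene ID to the RefSeq gene table of GRCm38.p6 for 20351 of 20380 probe sets with 1 symbol.

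With limma 3.58.1 (R 4.3.3; lmFit and eBayes), a model of 4 group means took all 12 arrays, with Benjamini-Hochberg adjustment over 22626 probe sets and a threshold of 0.05. Folds are 2 to the power of a log2 difference. The number of arrays limits the precision. The limma fit was checked on simulated arrays with independent errors for each probe set, unlike the members, which varied together. The scores, lists and sequence searches were not checked in this way. Sequences are from the RefSeq promoter table of GRCm38.p6, and matplotlib 3.10.9 drew the figures from tables read by pandas 2.3.3 under Python 3.11.15.

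The members, gene lists and comparisons were chosen with earlier results of these data known. Named members were up to 4 per direction with the lowest p in each comparison of groups, the 5 of the interaction, the 3 with the largest and smallest SD, and a list by role. Up to 3 genes of each other list are named, by p. The score of a list is computed like that of the members. Marker lists without values above, goblet, enteroendocrine, T cell, macrophage, mast cell and pancreas, had median differences of -0.07, 0.20, 0.14, 0.16, -0.11 and -0.07 on quercetin in wild type. The replicate numbers did not pair the arrays.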

Additional observations from a re-analysis of the deposited data

How the results depend on the processing

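The precision rests on 3 arrays a group, and 7 members are dim (a level under 8). The counts of all probe sets past the threshold were small and, apart from quercetin in POR-null mice, moved with some of the settings. In POR-null mice on quercetin the count was 0 in all 21 settings. For quercetin in wild type the count was 1, and it was 7 without the dimmest probe sets, 7 with a trended robust variance, 2 with only the arrays compared, 13 at an adjusted p under 0.1 and 1 to 59 with an array left out. For POR-null on the control diet it was 0, 1 with trended robust variance and 0 to 15 with an array left out. For POR-null on quercetin it was 0, 5 with trended robust variance, 2 with only the arrays compared and 0 to 1 with an array left out. For the interaction it was 0, 2 with trended robust variance, 2 at 0.1 and 0 to 9 with an array left out. For the average quercetin effect it was 0, 2 with centred medians, 1 without the dimmest, 1 with trended robust variance, 1 with array weights, 2 at 0.1 and 0 to 1 with an array left out. For the average POR-null effect it was 0, 4 with trended robust variance, 4 with array weights, 2 at 0.1 and 0 to 6 with an array left out. The highest counts, 59, 15 and 9, came without wild-type control replicate 1, and the 6 without wild-type control replicate 2. The cause was not tested.

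No member passed under these settings, apart from the 0 to 3 on quercetin in wild type with an array left out. With an array left out the median of the members on quercetin in wild type was 0.183 to 0.323, and that of the interaction was -0.313 to -0.158. Without _s_at, _x_at and _a_at probe sets, which leaves 20 members, the medians were 0.123 on quercetin in wild type, 0.055 for POR-null on the control diet and -0.103 for the interaction. The score of wild-type quercetin was then 0.055, and the large minus small subunit score was -0.107 in wild-type control, 0.040 in wild-type quercetin and 0.045 in POR-null control.

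The large minus small subunit difference of medians had no stable sign. Without _s_at, _x_at and _a_at probe sets it was 0.172 and -0.025 for quercetin in wild type and POR-null, 0.165 and -0.012 for POR-null on control and quercetin, -0.162 for the interaction, and 0.091 and 0.067 for the averages. With a gene read as the mean over its probe sets it was 0.051 for quercetin in wild type, 0.042 and -0.004 for POR-null on control and quercetin, and -0.071 for the interaction. With the probe set of largest SD it was -0.027 for quercetin in POR-null and 0.010 for the interaction, and with quantile normalization -0.028 for POR-null on control. With an array left out it was -0.026 to 0.037 for quercetin in wild type, 0.025 to 0.065 for POR-null on quercetin and 0.048 to 0.089 for the interaction.

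Small differences changed sign. For POR-null on quercetin, Rpl14 was -0.004 with quantile normalization, -0.007 with centred medians and -0.030 to 0.060 with an array left out. Rpl10a was -0.020 with centred medians and -0.070 to 0.050 with an array left out. Rpl7 was -0.011 with the mean of probe sets and -0.070 with the probe set of largest SD, Rps29 was 0.040 with the latter, and Rps24 was 0.160 without _s_at, _x_at and _a_at probe sets. Without those, Rps18 was -0.100 on quercetin in wild type and -0.160 for POR-null on control, on a dim probe set. Rpl39 on quercetin in wild type was 0.010 with centred medians and -0.060 to 0.050 with an array left out, and Rps25 for POR-null on control was -0.140 to 0.048.

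The replicate number as a block gave 5 probe sets on quercetin in wild type, 2 for POR-null on quercetin, 3 for the interaction and 2 for the average POR-null effect, and 0 members. Arrays with the same number had deviations from their group means that correlated with r of -0.18 to 0.16 (median 0.02 over 18 pairs), so the numbers were not taken as a pairing. Reading only members at a level of 8 or more, or all probe sets that list a ribosomal protein symbol, was added after the data were seen. Over all results and settings, 640 values and counts of comparisons stayed equal or moved by less than 1 SD or 1.5 times, and 79 moved further. Their direction was not part of this label. Many of the 640 could not move, since an array outside a comparison does not change its median. Nor can the mean score of 3 arrays move by 1 SD of its group when 1 of them is left out. Of values of single genes, 726 kept their direction and their side of the threshold, 17 changed sign and 2 passed the threshold only in the alternative.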

Other observations

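The 102 probe sets that list a ribosomal protein symbol among several were left out by the rule, and they bear 41 such symbols, 27 of which belong to no member. Their score, computed like that of the members, was -0.02, -0.29 and -0.15 in wild-type control, 0.04, 0.15 and 0.10 in wild-type quercetin, 0.01, -0.05 and 0.05 in POR-null control and 0.00, 0.11 and 0.07 in POR-null quercetin. The wild-type control arrays were again the low ones and replicate 2 the lowest. Many of their probes may also read the members, so this is not independent of the values above.

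The 7 members under a mean level of 8 scored -0.02, -0.18 and -0.05 in wild-type control and -0.01, 0.02 and 0.17 in wild-type quercetin, and pairs of them had a median r within groups of 0.08. For the 34 brighter members the scores were -0.03, -0.32 and -0.14 against 0.08, 0.18 and 0.10.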
